A study of Mus musculus with 19 samples.

Results

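The 10 genes described here encode the core of the mouse microRNA machinery: Drosha, Dgcr8 and Dicer1, which process precursors, Ago1, Ago2 and Ago3, which carry the mature microRNA, Tnrc6a, Tnrc6b and Tnrc6c, the scaffolds that Argonautes recruit, and Ddx6, the RNA helicase at the end of the chain. They were chosen by symbol from the 55487 genes in each table, and the choice was made knowing that Ddx6 was lower in cultures that received an inhibitor of miR-146a. Values of the 10 genes in the cultures are therefore given as a description, with no test, while their values in spinal cords are tested. The study sequenced total RNA, with ribosomal RNA removed, from 19 libraries. Of these, 9 came from snap-frozen spinal cords of animals labelled miR-146a KO and 4 from cords of animals labelled miR-146a WT. The other 6 came from motor neurons of wild-type genotype made from RW.4 mouse embryonic stem cells with retinoic acid and SAG, an agonist of the Hedgehog pathway. For 72 hours, 3 of these cultures were transfected by Lipofectamine 2000 with 10 nM of miR-146a LNA, a locked nucleic acid antisense to the microRNA, and 3 with 10 nM of control LNA. The labels give no age, sex, strain, tissue segment, litter or date, and nothing in them shows that each library is a different animal or dish. The p-values below therefore measure only the spread between these libraries, which may be technical, and all cultures derive from 1 stem cell line.

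In the nucleus Drosha, an RNase III enzyme, cuts primary transcripts together with its RNA-binding partner Dgcr8, and in the cytoplasm Dicer1, another RNase III enzyme, releases the mature duplex. One strand is loaded into an Argonaute protein, of which Ago2 is the one known for slicing its target. Tnrc6 proteins, also called GW182 proteins, bind Argonautes and bring in the CCR4-NOT deadenylase, and Ddx6 binds that complex and acts in translational repression, decapping and P-body assembly. Dicer1 is required for the survival of spinal motor neurons in mice, and miR-146a is best known as a brake on innate immune signalling.

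The mature sequence of miR-146a, the microRNA removed in the cords and targeted in the cultures, is shown with its relative miR-146b because both carry the same seed, bases 2 to 8, in capitals. Both are from RefSeq on GRCm38.p6. The miR-146a sequence lies at chr11:43374435-43374456 on the minus strand and the miR-146b sequence at chr19:46342790-46342811 on the plus strand.
mmu-miR-146a-5p: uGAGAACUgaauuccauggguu
mmu-miR-146b-5p: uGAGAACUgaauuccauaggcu
The 7 bases complementary to this seed, AGTTCTC, were searched on the sense strand of the longest annotated 3' UTR of each gene (GENCODE M21, GRCm38). The letters were present in 4 of the 10 genes (Ddx6, Ago1, Ago2 and Tnrc6b), against 11.1% of 21037 genes with a 3' UTR. The UTRs of the machinery genes are long, so a closer comparison is with UTRs of similar length (80% to 125%), of which 32.3% held the match for Ddx6, 34.1% for Ago1, 65.4% for Ago2 and 66.7% for Tnrc6b. For the 6 genes without a match the same share ran from 2.0% (Drosha) to 67.4% (Ago3), and its mean over the 10 genes was 34.8%, so 4 of 10 is near the share in UTRs of such lengths. The matches are shown with the 15 bases before and the base after, with the match in capitals, because they show which of the 10 transcripts contain the letters. A final a after the capitals makes the match 8 bases long, as in Ago1 and the first match of Tnrc6b.
Ddx6 (chr9:44636817-44636839, plus strand): catgcacctgtctaaAGTTCTCc
Ago1 (chr4:126436029-126436051, minus strand): ctgttctagaaatctAGTTCTCa
Ago2 (chr15:73102364-73102386, minus strand): aacactctgacaagaAGTTCTCc
Tnrc6b, first (chr15:80930730-80930752, plus strand): tcaattacttctatcAGTTCTCa
Tnrc6b, second (chr15:80931109-80931131, plus strand): aaacatcaatgtagtAGTTCTCt
A match is a run of letters and was not tested as a site of binding. No match was found in the longest 3' UTRs of Drosha, Dgcr8, Dicer1, Ago3, Tnrc6a and Tnrc6c.

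Cord libraries held 28163289 to 39577247 counts each, and culture libraries 40647549 to 65471742. The precursor gene Mir146 gave no check of the labels, with 0 counts over the 4 wild-type cords, 1 over the 9 knockout cords and 0 in both culture groups. A check came from Pttg1, the gene next to it, which had 14.9 to 17.4 normalised CPM (CPM being the count scaled by the library's total, here after TMM scaling) in wild-type cords and 1.06 to 1.81 in 8 of the knockout cords. The library labelled knockout replicate 9 had 13.04, and it also stood apart at Sod1, with 1947 normalised CPM against 191.2 to 274.9 in the other 12 cords. It goes against its label and is named as the library labelled knockout replicate 9 throughout, and the cord values are given with and without it. Motor neuron markers (6 genes) summed to 2950 to 3130 normalised CPM in the cultures, where the 5 microglial markers summed to at most 0.606 and the 5 astrocyte markers to at most 5.54. Among cords, activated microglia markers (5 genes) summed to 7.99 to 13.3 in wild types and 5.77 to 500.0 in knockouts. These are bulk samples, in which fewer cells of a type and less RNA per cell cannot be told apart.

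By group mean, Drosha was the most abundant of the 10 transcripts per length in both materials, and the rest of the order differed between them. On the scale of deposited TPM (transcript abundance scaled by gene length to a fixed sum per library), Drosha reached 89.8 ± 7.47 (SD, n = 4) in wild-type cords and 105 ± 3.94 (SD, n = 3) in control cultures. Ddx6 ranked 2 in wild-type cords at 72.7 ± 3.61 TPM, and ranked 5 in control cultures at 14.8 ± 2.15 TPM. Dicer1 stood the other way round, rank 8 in wild-type cords at 10.6 ± 1.07 TPM and rank 2 in control cultures at 33.2 ± 2.30 TPM. In wild-type cords the order continued with Ago1 at 64.2, Ago2 at 33.6, Tnrc6a at 29.6, Tnrc6c at 23.5, Tnrc6b at 16.2, Dicer1, Dgcr8 at 8.70 and Ago3 at 8.60 mean TPM. Ranges of neighbours in that order overlapped only for Ago2 with Tnrc6a and for Dgcr8 with Ago3. In knockout cords the Drosha range, 77.3 to 93.9 TPM, overlapped that of Ddx6, 70.4 to 84.4. In control cultures Dicer1 was followed by Tnrc6c at 27.2, Dgcr8 at 24.3, Ddx6, Tnrc6a at 13.6, Ago1 at 10.8, Ago2 at 9.53, Tnrc6b at 4.69 and Ago3 at 2.09 mean TPM. There the neighbours Dicer1 and Tnrc6c, Tnrc6c and Dgcr8, Ddx6 and Tnrc6a, and Ago1 and Ago2 overlapped.

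The same contrast shows by role. The 3 processing genes made up 30.5% ± 0.575 of the summed TPM of the 10 genes in wild-type cords (SD, n = 4) and 66.4% ± 1.91 in control cultures (SD, n = 3). The 3 Argonautes made up 29.7% ± 0.874 and 9.14% ± 0.866, and Ddx6 20.4% ± 0.869 and 6.004% ± 0.496, respectively. The 3 Tnrc6 genes had 19.4% ± 0.442 and 18.5% ± 1.13, with ranges that overlapped. The Argonaute percentages leave out Ago4, which was not among the 10 genes. Ago4 took 3.36% to 5.01% of the summed TPM of Ago1 to Ago4 in wild-type cords and 25.55% to 31.75% in control cultures. The Argonaute contrast would therefore be smaller with Ago4 included. Cords and cultures differ in cell types and preparation at once, so no test was made between them.

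**Figure D1:**
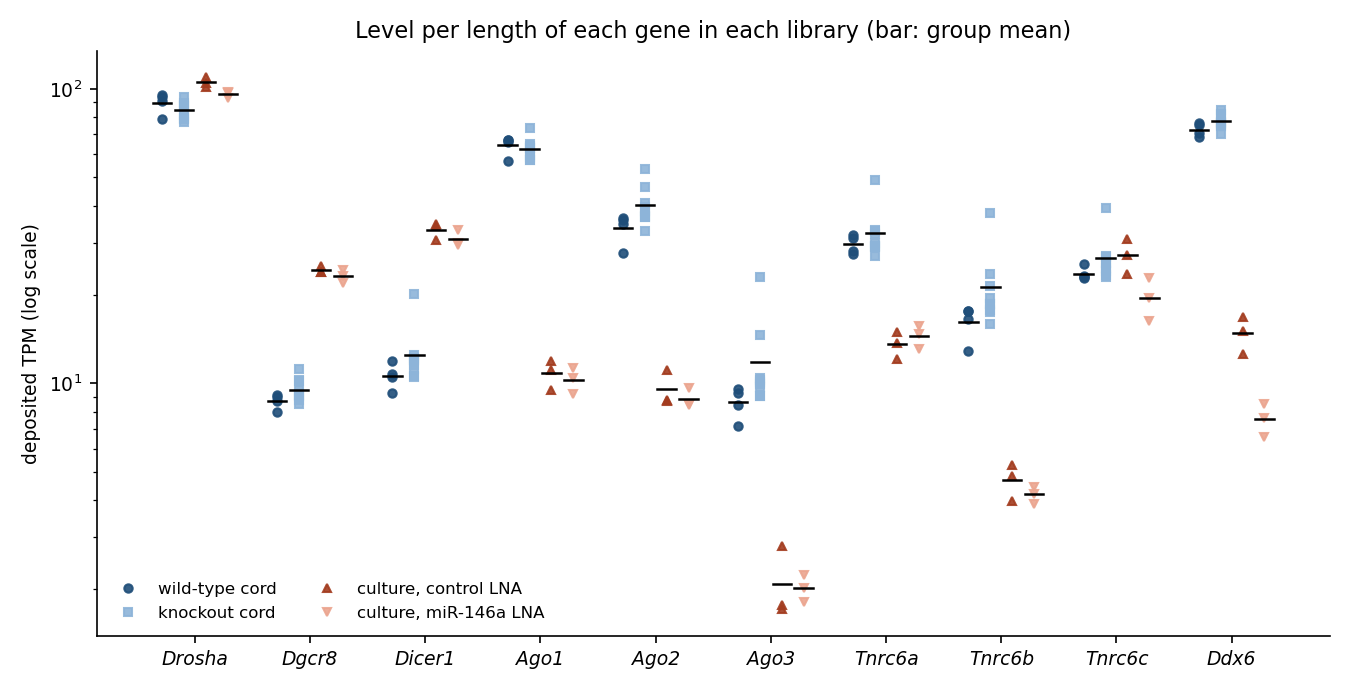
Deposited TPM (log scale) of each of the 10 genes in each library, with a bar at each group's mean, for 4 wild-type cords, 9 knockout cords, 3 control cultures and 3 cultures with miR-146a LNA. Drosha averages from 84.7 in knockout cords to 105 in control cultures, whereas Ddx6 averages 72.7 in wild-type cords and 14.8 in control cultures and Dicer1 10.6 and 33.2.

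In the cultures, 3 of the 10 genes, Ddx6, Tnrc6c and Drosha, were lower in every library with miR-146a LNA than in any control library. Groups that do not overlap made up 15.1% of the 19099 genes tested in this direction and 12.8% in the other, and nothing is read from the count, since the contrast was used to choose the genes. Of the 10 log2 differences from the edgeR quasi-likelihood fit 9 were negative, with a median of -0.10, against a median of 0.008 over all genes. Control replicate 1 held the highest control value of each of the 10 genes except Dgcr8. Without it the differences were -0.866 for Ddx6, -0.383 for Tnrc6c, -0.1 for Drosha and -0.084 for Dgcr8. They were -0.066 for Tnrc6b, -0.062 for Dicer1 and 0.0 for Ago1, and positive for Ago2, Ago3 and Tnrc6a. In the fit of all cultures, the median log2 difference of genes with exons of up to 2000 bases was 0.17, and that of genes above 10000 bases was -0.13. The exon lengths of the 10 genes ran from 5935 bases (Drosha) to 23677 bases (Tnrc6b), and the part of length in their values was not tested.

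Ddx6, the helicase that links CCR4-NOT to decapping, had 35.6, 31.7 and 26.6 normalised CPM in the control cultures 1 to 3 and 18.0, 15.9 and 14.2 in the LNA cultures 1 to 3. The lowest control value lay well above the highest LNA value. Means were 31.3 ± 4.51 and 16.03 ± 1.93 (SD, n = 3 each), a ratio of 0.512, and the log2 difference was -0.97 with a standard error of 0.11. At that value or below lay 168 genes, 0.88% of those tested. For genes of 5000 to 10000 exon bases, the class that holds Ddx6 (8035 bases), the median log2 difference was -0.060. Per length, Ddx6 went from rank 5 of the 10 in control cultures to rank 8 in LNA cultures, at 7.55 ± 0.968 TPM (SD, n = 3). Its ratio to Drosha in TPM was 0.140 ± 0.0154 in control and 0.0786 ± 0.0084 in LNA cultures. Ddx6, on chromosome 9 (44604892 to 44640731, plus strand, GRCm38), shares no exon bases with another annotated gene.

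**Figure D2:**
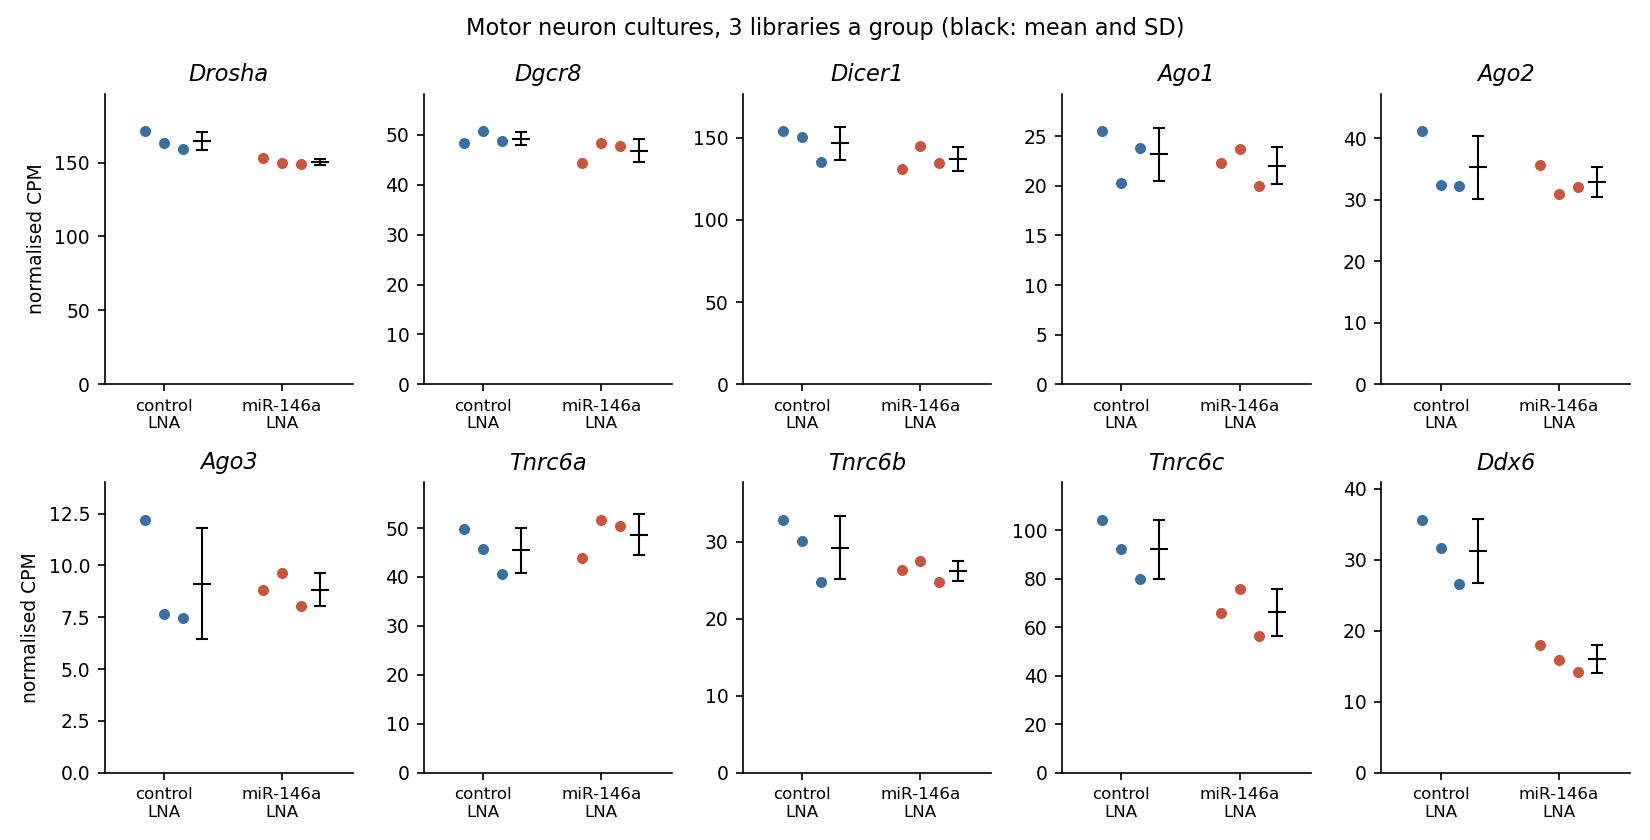
Normalised CPM of the 10 genes in each of 3 control and 3 miR-146a LNA cultures (points), with group mean and SD (black); each panel has its own axis from 0. Ddx6, Tnrc6c and Drosha are the panels where the groups do not overlap, and the Ddx6 means are 31.3 and 16.03.

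The Tnrc6 scaffolds differed among themselves. Tnrc6c had 104.2, 92.4 and 79.9 normalised CPM in control cultures and 66.1, 75.8 and 56.3 in LNA cultures, so its groups did not overlap. The log2 difference was -0.48 (standard error 0.12). Tnrc6a had 49.9, 45.8 and 40.7 in control and 43.8, 51.7 and 50.4 in LNA cultures, overlapping groups with the only positive log2 difference of the 10, 0.098 (standard error 0.083). Tnrc6b, with control values of 24.8 to 32.8 and LNA values of 24.8 to 27.5, also overlapped, at -0.16 (standard error 0.095). Within the summed TPM of the 3 scaffolds, Tnrc6c took 59.8% ± 0.545 in control and 50.9% ± 3.67 in LNA cultures, and Tnrc6a 29.9% ± 0.667 and 38.1% ± 3.58 (SD, n = 3 each).

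Among the processing genes, Drosha had 171.0, 163.3 and 159.2 normalised CPM in control cultures and 152.8, 149.7 and 148.8 in LNA cultures. These groups did not overlap, though the log2 difference was only -0.13 (standard error 0.050), and -0.084 with scaling by library size alone. Dicer1, at 135 to 154 in control and 131 to 145 in LNA cultures, overlapped (log2 difference -0.098, standard error 0.060). Dgcr8 overlapped narrowly, with 48.4 to 50.7 in control and 44.3 to 48.5 in LNA cultures (-0.071, standard error 0.066). Dgcr8 shares 10.7% of its exon bases with Trmt2a on the opposite strand, and the strand setting of the counting is not given in the sources used here. Only unambiguous reads were counted, so the Dgcr8 values may lack reads from the shared bases.

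The 3 Argonautes had log2 differences of -0.074 (Ago1), -0.10 (Ago2) and -0.049 (Ago3), each with overlapping groups. Their standard errors were 0.097, 0.095 and 0.17. Control replicate 1 held the highest value of all 3 genes, and without it the differences were 0.0 for Ago1, 0.023 for Ago2 and 0.22 for Ago3, so no direction is given for them. Ago3 was also positive without LNA replicate 3 (0.017) and with limma (0.048). Ago3 was the least abundant of the 10, at 7.48 to 12.2 normalised CPM in control and 8.03 to 9.62 in LNA cultures. The fourth Argonaute, Ago4, was not among the 10 genes but was tested in the wider list below.

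In spinal cords no gene of the 10 passed the test between genotypes. There edgeR called 0 of 10 at an adjusted p under 0.05, as it called 0.0% of all 22174 genes tested, and DESeq2 called 0 of 10 and 1.75% of all genes. At an unadjusted p under 0.05 there were 2 of the 10, Ago2 (higher) and Drosha (lower), beside 14.3% of all genes, 7.53% higher and 6.8% lower. Without the library labelled knockout replicate 9 the count was again 2, now Ago1 and Drosha, beside 3350 of all 21793 genes tested. No gene of the 10 was called in that fit. The genotypes overlapped for every one of the 10, where 0.505% of all genes were higher and 0.798% lower without overlap. Of the 10 genes, 8 had positive and 2 negative log2 differences, and the median was 0.088 against 0.017 over all genes.

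In the cords Ddx6 did not pass the test. It had 191.4, 187.8, 190.6 and 189.1 normalised CPM in the 4 wild types, and a lowest, median and highest value of 183.1, 194.2 and 211.5 in the 9 knockouts. The wild-type values lay inside the knockout range. The log2 difference was 0.037 (standard error 0.047, edgeR adjusted p = 0.737), and 0.048 (edgeR adjusted p = 0.63) without the library labelled knockout replicate 9. The genes whose profile over the 13 cords was nearest to that of Ddx6 were Zfand5, Api5, Pik3ca, Clpx and Eif2ak3. Their root mean square differences from it in centred log2 normalised CPM were 0.0311 to 0.0435, against a median of 0.187 over 16735 genes. Ddx6 itself had a spread of only 0.054, so genes that vary little lie near it, and shared variation was not tested.

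Drosha was lower in most knockout cords. Its wild-type values were 168.8, 187.8, 175.7 and 160.5 normalised CPM, and the knockouts ran from 146.2 through a median of 156.6 to 168.6. Below every wild type lay 6 of the 9 knockouts, and the groups overlapped. The log2 difference was -0.14 (standard error 0.056, unadjusted p = 0.0221, edgeR adjusted p = 0.302), the same to 2 decimals without the library labelled knockout replicate 9. Its partner Dgcr8 had 20.3 to 23.7 in wild types and 20.4 to 24.4 in knockouts (log2 difference 0.067, edgeR adjusted p = 0.643), and 0.056 without that library. Dicer1 had 53.3 to 62.3 in wild types and 55.7 to 94.9 in knockouts (log2 difference 0.17, edgeR adjusted p = 0.494), and 0.084 without the library labelled knockout replicate 9, which held its highest value.

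Of the Argonautes, Ago2 was higher and Ago1 lower in knockout cords, neither past the threshold. Ago2 had 159.2, 166.9, 153.6 and 132.9 normalised CPM in wild types, and 149.9, 170.7 and 209.7 as lowest, median and highest in knockouts. Above every wild type lay 6 of the 9 knockouts. The log2 difference was 0.20 (standard error 0.087, unadjusted p = 0.0397, edgeR adjusted p = 0.332). It was 0.16 (unadjusted p = 0.0517) without the library labelled knockout replicate 9 and 0.13 without wild-type replicate 4, which had the lowest value. Ago1 had 157.8 to 176.9 in wild types and 148.2 to 168.2 in knockouts, with 5 of 9 below every wild type (log2 difference -0.10, edgeR adjusted p = 0.357, and -0.12 without the library labelled knockout replicate 9). Ago3 had 40.6 to 52.5 in wild types and 47.6 to 106.5 in knockouts, with a log2 difference of 0.38 (standard error 0.20, edgeR adjusted p = 0.395) that was 0.23 without the library labelled knockout replicate 9.

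The Tnrc6 genes had wide knockout ranges. Tnrc6b had 103.9 to 138.1 normalised CPM in wild types and 119.6 to 250.9 in knockouts, with a log2 difference of 0.32 (standard error 0.17, edgeR adjusted p = 0.387), and 0.20 without the library labelled knockout replicate 9. Tnrc6a had 118.4 to 128.0 and 107.5 to 174.7 (log2 difference 0.066, edgeR adjusted p = 0.782), and Tnrc6c 92.9 to 103.0 and 95.6 to 141.5 (0.11, edgeR adjusted p = 0.571). Without that library the difference was -0.001 for Tnrc6a and 0.047 for Tnrc6c. The highest value of all 3 genes was in the library labelled knockout replicate 9.

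**Figure D3:**
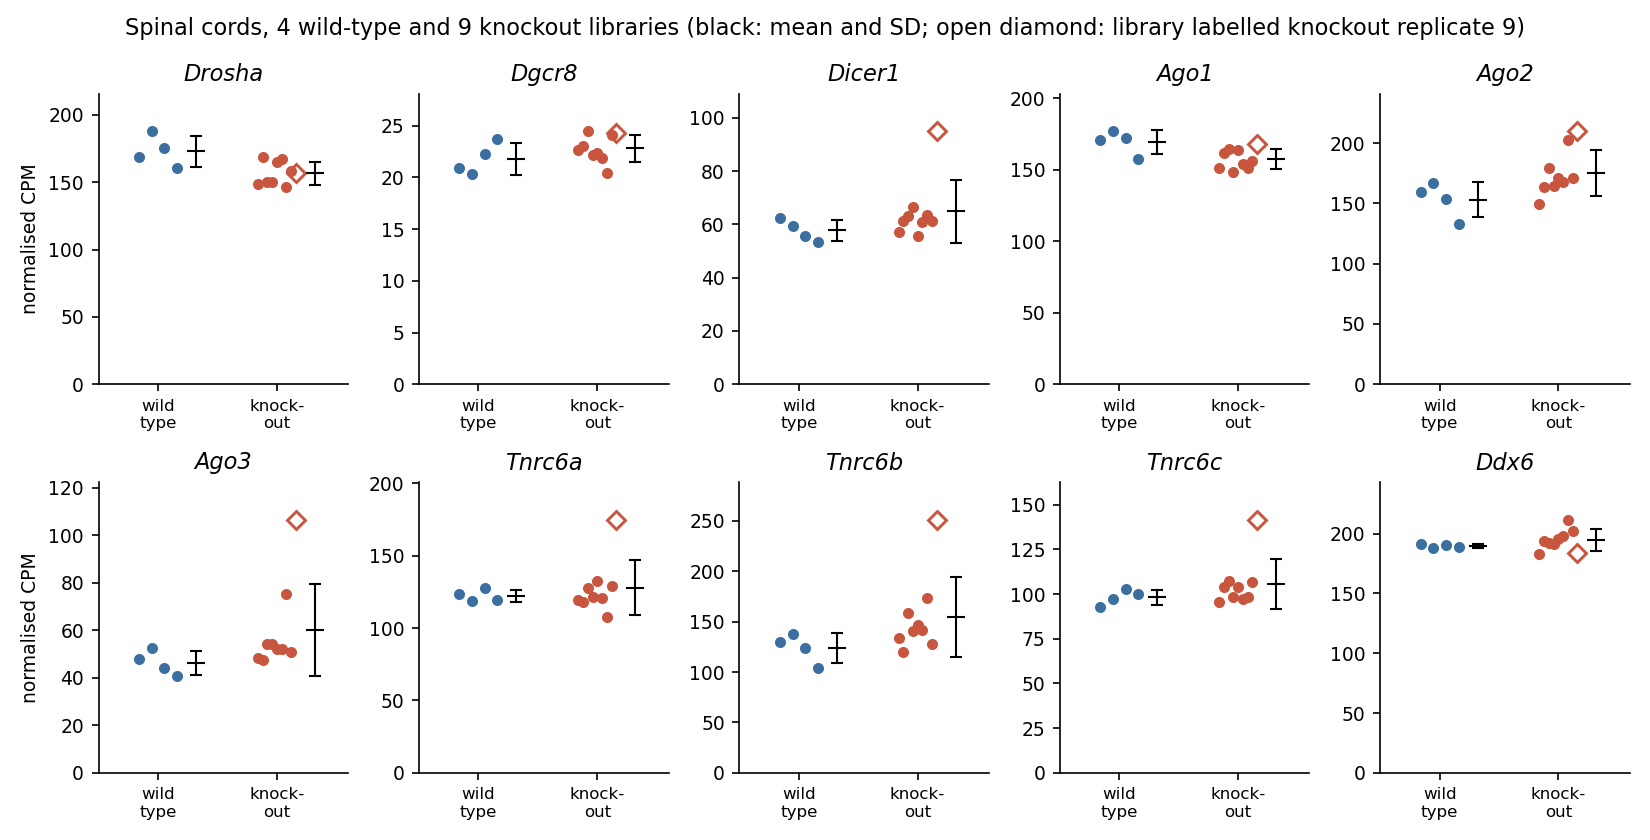
Normalised CPM of the 10 genes in each of 4 wild-type and 9 knockout cords (points), with group mean and SD (black) and the library labelled knockout replicate 9 as an open diamond; each panel has its own axis from 0. The Ddx6 wild types lie between 187.8 and 191.4, within the knockout range, and the diamond is far above the other knockouts for Dicer1, Ago3 and the 3 Tnrc6 genes.

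In that library the longer of the 10 genes were the higher ones. Its log2 ratio to the mean of the other 8 knockouts was 0.96 for Ago3 (16571 exon bases), 0.81 for Tnrc6b (23677), 0.63 for Dicer1 (16750), 0.52 for Tnrc6a (12706), 0.48 for Tnrc6c (12843) and 0.29 for Ago2 (14031). The 4 shorter genes lay nearer 0, at 0.11 for Ago1, 0.097 for Dgcr8, -0.002 for Drosha and -0.095 for Ddx6. Over all genes of at least 1 mean CPM, the median log2 ratio was -0.21 up to 2000 exon bases, -0.15 from 2000 to 5000, -0.014 from 5000 to 10000 and 0.21 above 10000. All 6 of the longer machinery genes were above the median of their class, as were Ago1, Dgcr8 and Drosha of the shorter ones, with Ddx6 below.

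**Figure D4:**
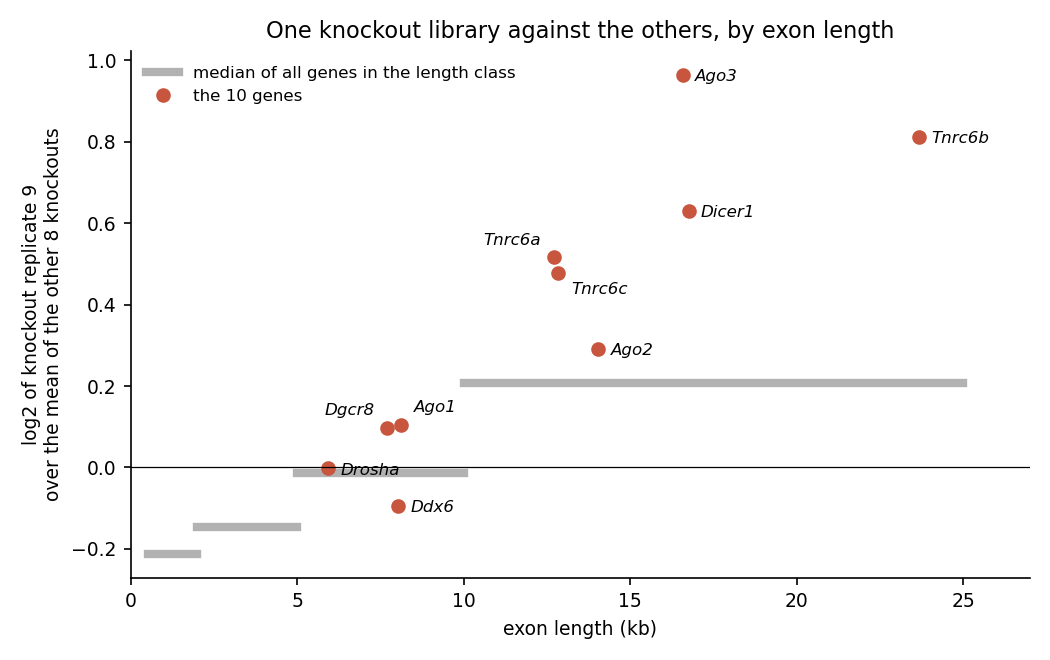
Log2 of normalised CPM in the library labelled knockout replicate 9 over the mean of the other 8 knockout cords, against exon length in kb, for the 10 genes (points) and as medians of all genes in 4 length classes (grey bars, the last one open-ended and drawn to 25 kb). The bars step from -0.21 to 0.21, and Ago3 at 0.96 is the highest point.

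The balance among the Argonautes differed between the cords labelled knockout and those labelled wild type. The share of each gene in the summed TPM of Ago1, Ago2, Ago3 and Ago4 does not depend on library scaling. The Ago2 share was 30.8%, 31.2%, 30.3% and 28.7% in the 4 wild types, and had a lowest value of 31.8% and a highest of 37.2% in the 9 knockouts. Every library labelled knockout was above every wild type, among them replicate 9 at 33.6%, whose Pttg1 level goes against its label. If that library were counted as a wild type, the groups would overlap. Means were 30.2% ± 1.09 (SD, n = 4) and 33.7% ± 1.504 (SD, n = 9), a difference of 3.48 percentage points (exact two-sided permutation test, p = 0.001399, the smallest that 4 against 9 libraries allow). Adjusted over the 7 shares tested, 4 of Argonautes and 3 of Tnrc6 genes, p was 0.00979 by the same exact test. The call held when any 1 library was left out, with adjusted exact p-values of 0.00707 to 0.0318, and the difference was 3.49 points without the library labelled knockout replicate 9.

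The Ago1 share was the counterpart, 57.0%, 57.1%, 58.7% and 58.9% in wild types and 46.6% to 55.5% in knockouts, again without overlap by label. The lowest value, 46.6%, was in the library labelled knockout replicate 9. The Ago1 difference was -5.30 points (exact permutation test, p = 0.01119, adjusted p = 0.03916). This call was lost in 7 of 15 alternatives, each leaving out 1 library (knockout replicate 3, 4 or 8, or any of the 4 wild types), with adjusted exact p-values up to 0.127. The Ago3 share was 7.73% ± 0.446 in wild types and 9.66% ± 2.09 in knockouts (adjusted exact permutation p = 0.1273), and the Ago4 share 4.14% ± 0.732 and 4.03% ± 0.660 (adjusted exact permutation p = 0.8). No Tnrc6 share passed, the nearest being Tnrc6a with 42.7% ± 1.17 and 40.6% ± 2.04 (adjusted exact permutation p = 0.1273). The 4 Argonaute shares sum to 100% in each library, so they are not independent of each other, and the shares were chosen with earlier results of these data known.

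Exon length and cell markers also differed between the genotypes, and both are given here beside the Ago2 share. Ago2 has 14031 exon bases and Ago1 8120, and the median log2 difference between genotypes ran from -0.047 for genes up to 2000 bases to 0.074 above 10000 bases (0.035 without the library labelled knockout replicate 9). A length tilt was taken per library, its median log2 ratio to the rest of its group above 10000 bases minus that up to 2000. In libraries labelled knockout 1 to 9 it was -0.17, -0.086, -0.001, -0.034, -0.06, -0.052, 0.039, 0.013 and 0.419. Their Ago2 shares were 31.8%, 32.5%, 33.9%, 33.8%, 32.8%, 34.0%, 37.2%, 33.7% and 33.6%. Wild types 1 to 4 had tilts of 0.056, 0.038, 0.059 and -0.14, the lowest with the lowest share, 28.7%. Red blood cell markers (4 genes) summed to 69.8 to 461.2 normalised CPM in knockouts 1 to 8 and 14.98 to 29.7 in wild types, with 27.5 in the library labelled knockout replicate 9, whose Ago2 share was 33.6%. Knockout replicate 7 had the highest Ago2 share, 37.2%, and the highest sums of markers of astrocytes (5 genes, 7317, against 2105 to 3136 in wild types), microglia (5 genes, 661.5, against 181.7 to 222.6), skeletal muscle (4 genes, 3681, against 1.76 to 9.04) and fibroblasts (4 genes, 2071, against 66.3 to 84.5). Knockout replicate 1 was second for astrocytes (6742) and microglia (535.7), and had the lowest Ago2 share of the knockouts, 31.8%, and the lowest length tilt, -0.17. Without knockout replicate 7 the Ago2 share differed by 3.05 points (adjusted exact permutation p = 0.0141), and without replicates 7 and 9 together by 3.0 points (adjusted exact permutation p = 0.0106). The part of length and of cell makeup in the difference was not tested.

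**Figure D5:**
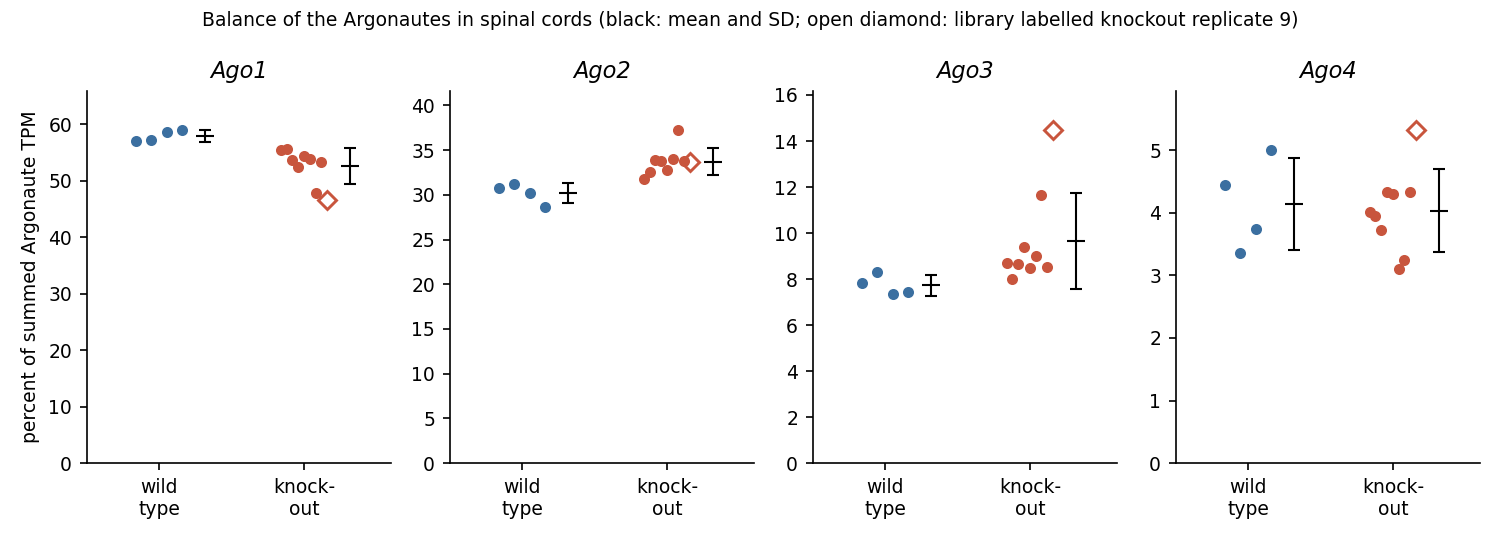
Percent of the summed deposited TPM of the 4 Argonautes taken by each, in 4 wild-type and 9 knockout cords (points), with mean and SD (black) and the library labelled knockout replicate 9 as an open diamond; each panel has its own axis from 0. Ago2 lies at 28.7% to 31.2% in wild types and 31.8% to 37.2% in knockouts, and Ago1 at 57.0% to 58.9% and 46.6% to 55.5%.

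Around these 10 genes, 56 other genes of the pathway were tested. In the cultures 8 of 56 passed an edgeR adjusted p under 0.05 (14.29%, beside 8.56% of all genes), 3 of them higher with miR-146a LNA (2.40% of all genes) and 5 lower (6.16% of all genes). Of the 56 log2 differences 45 were negative, with a median of -0.075, against 0.008 over all genes. By exon length, the median over all genes was 0.17 up to 2000 bases, 0.003 to 5000, -0.060 to 10000 and -0.13 above. The part of length in the 45 negative differences was not tested. Among partners of Drosha and Dgcr8, the helicase Ddx17 fell from 102 ± 3.46 to 72.9 ± 2.32 normalised CPM (log2 difference -0.49, edgeR adjusted p = 4.04e-05), and Ilf2, a double-stranded RNA binding factor, from 148 ± 4.55 to 124 ± 2.14 (-0.25, edgeR adjusted p = 0.00411). Cnot7, a deadenylase of CCR4-NOT, fell from 206 ± 3.81 to 171 ± 8.71 (-0.26, edgeR adjusted p = 0.00319). These 3 passed in all 13 alternatives.

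The other 5 were less stable. Ipo8, an importin that binds Argonautes, was lower (log2 difference -0.21, edgeR adjusted p = 0.0481, passing in 5 of 13 alternatives), as was Dis3l2, an exonuclease of tailed precursors (-0.19, edgeR adjusted p = 0.0333, 7 of 13). Higher were Prkra, a Dicer1 partner (0.24, edgeR adjusted p = 0.0356, 8 of 13), and Mov10, a helicase found with Argonautes (0.44, edgeR adjusted p = 0.0487, 8 of 13). Lin28a, which blocks the maturation of let-7, was also higher, from 1.64 ± 0.567 to 3.33 ± 0.496 normalised CPM (1.02, edgeR adjusted p = 0.0176, 10 of 13). Ago4 was lower in all 3 LNA cultures, at 11.4 to 13.8 against 14.4 to 17.0, and missed the threshold (-0.35, edgeR adjusted p = 0.0543), which it passed in 5 of 13 alternatives, among them DESeq2 (adjusted p = 0.0254). The number of calls was 4 or 5 on leaving out any 1 library other than LNA replicate 3, without which it was 10.

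In cords 0 of the 55 pathway genes tested passed with edgeR and 0 with DESeq2, beside 0.0% and 1.75% of all genes, and 5 had an unadjusted p under 0.05, beside 14.3% of all genes. Without the library labelled knockout replicate 9 edgeR again called 0. There 9 of the 55 had an unadjusted p under 0.05, beside 3350 of all 21793 genes tested. The nearest were Mov10, with 3.92 to 5.53 normalised CPM in wild types and 4.91 to 10.9 in knockouts (log2 difference 0.68, edgeR adjusted p = 0.292, and 0.62 without that library), and the deadenylase Cnot6, with 26.4 to 30.4 and 28.9 to 35.2 (0.21, edgeR adjusted p = 0.292, and 0.23 without it). In the lower direction they were Prkra (-0.16, edgeR adjusted p = 0.319, and -0.14 without it) and Eif4enif1, a partner of Ddx6 (-0.10, edgeR adjusted p = 0.357, and -0.11 without it).

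The 12 microRNA host transcripts, which Drosha and Dgcr8 cut, gave 0 calls of 10 tested in cords and 0 of 9 in cultures with edgeR. The unadjusted p was under 0.05 for 2 in each, beside 14.3% of all genes in cords and 22.9% in cultures. In cords these were Mir142hg, at 0.0567 to 0.252 normalised CPM in wild types and 0.136 to 1.35 in knockouts (log2 difference 2.14, edgeR adjusted p = 0.292), and Dleu2 (0.55, edgeR adjusted p = 0.348). Without the library labelled knockout replicate 9 they were 2.28 and 0.43, with 0 calls. In cultures the 2 were Mir124-2hg, a host of the neuronal miR-124, at 20.1 ± 0.853 in control and 16.9 ± 0.904 in LNA cultures (-0.25, edgeR adjusted p = 0.0862), and Mirg (-0.29, edgeR adjusted p = 0.156). The remaining host transcripts named by the same rule, Mir99ahg, Mir124a-1hg, Mir9-3hg and Mir22hg, had edgeR adjusted p-values of 0.509 or more.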

How the data were processed

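Counts, CPM, FPKM and TPM are columns of the gene tables the authors deposited, 1 table per library. Per the submitters' design notes, reads were aligned with STAR and uniquely aligned, unambiguous reads were counted per gene with featureCounts, and the submitters' processing notes name the build GRCm38. The count column deposited by the authors was used in every gene test. The CPM column deposited by the authors equals counts over their sum, and the FPKM column the authors deposited was read only for a unit check. The TPM column deposited by the authors was used for levels and shares. The strand setting and the treatment of duplicates were not given in these sources. Symbols came from GENCODE M21 (99.4% of IDs).

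Each comparison was fitted alone in R 4.3.3 with edgeR 4.0.16 (quasi-likelihood test, robust option), with TMM scaling and the default filter on low counts, adjusted by Benjamini-Hochberg over all genes, with a threshold of 0.05. Fold changes are LNA over control and knockout over wild type. The fit was tested on simulated data. Shares were compared by exact permutation over libraries. DESeq2 1.42.0, limma 3.58.1, other scalings and filters, a replicate block and leaving out libraries were alternatives. Named genes are the 10 genes, up to 5 pathway genes per direction past the threshold (otherwise the 2 with the smallest p), host transcripts by the same rule with 3, and the 5 nearest to Ddx6. Members and lists were chosen with earlier results of these data known. Cord replicate numbers only name libraries.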

Additional observations from a re-analysis of the deposited data

Results flagged for a closer look

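Of 34 groups of 4 or more cords examined for a value far from the rest, 7 had one. Chance gives about 1 in 20 for independent groups. These groups share libraries, and 5 of the 7 values are from 1 library, so the count cannot be compared with that rate. In the library labelled knockout replicate 9, normalised CPM was 106.5 for Ago3 (other knockouts 47.6 to 75.1), 174.7 for Tnrc6a (107.5 to 132.6), 250.9 for Tnrc6b (119.6 to 173.1), 141.5 for Tnrc6c (95.6 to 107.3) and 94.86 for Dicer1 (55.7 to 66.4). Each of these 5 genes has more than 10000 exon bases, the class in which the median of all genes was also higher in that library. In knockout replicate 7 the Ago2 share of Argonaute TPM was 37.2%, against 31.8% to 34.0% in the other knockouts. In wild-type replicate 2 the Tnrc6a share of Tnrc6 TPM was 41.0%, against 43.2% to 43.6% in the other wild types.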

How the results depend on the processing

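In cords the count of called genes was 0, and became 388 with DESeq2, 3 with limma, 8 without knockout replicates 7 and 9 together, and 0 to 2 on leaving out 1 library. The cause was not tested. None of the 10 genes was called in any of the 20 alternatives. The Tnrc6a difference reversed to -0.001 without the library labelled knockout replicate 9 (highest value on leaving out 1 library, 0.105), and the Ago4 share (from -0.365 to 0.183 points) to 0.0102 points without knockout replicate 6 and 0.183 without wild-type replicate 4. On leaving out 1 library the Ago1 share difference ran from -5.67 to -4.55 points, and the Ago3 share passed without knockout replicates 7 and 9 together (0.953 points, adjusted exact permutation p = 0.0141). In cultures 1635 genes were called, and 778 to 1985 on leaving out 1 library (778 without control replicate 2, 1059 without control replicate 1), and the 8 pathway calls became 4 to 10. Scaling by library size alone moved the share of lower calls from 72.0% to 52.9% (831 lower, 741 higher). With it the Drosha difference went from -0.13 to -0.084. The Ddx6 difference in cultures ran from -1.08 to -0.87 on leaving out 1 library. Deviations of same-numbered cultures from their group means had correlations of 0.057, -0.16 and 0.020 over 14298 genes. Those of differently numbered cultures ran from -0.195 to 0.199. With 3 libraries a group these values cannot settle whether the numbers pair the cultures. A replicate block gave 1793 calls (552 higher, 1241 lower) and 8 pathway calls, with Ago4 (edgeR adjusted p = 0.0406) gained and Ipo8 lost. With the block the standard error went from 0.111 to 0.091 for Ddx6 and from 0.124 to 0.071 for Tnrc6c.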
